A study of Rattus norvegicus with 12 samples.

Results

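Ceacam6, Alpp, Amigo2 and Nrcam are 4 genes named for cell surface proteins that stood among the largest rises from untreated to TNFα-treated wild-type rat hepatic progenitor cells (HPCs, immature liver cells that can form hepatocytes and bile duct cells). They were taken by symbol, 4 of the 22384 lines of the table that carry a gene symbol, and each symbol has 1 line. By the size of the rise in wild type they held positions 2 (Ceacam6), 3 (Amigo2), 4 (Alpp) and 8 (Nrcam) of the 22384 lines, between Akr1c2 at position 1, with a rise of 15.77 log2 units, and Akr1b10 at position 9, with 11.59. They were chosen by their measured rise in the 4 wild-type libraries, so their wild-type values are a description here and carry no test. Tests were made only between groups without wild-type libraries.

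RNA-seq was done on 12 libraries of HPCs from gestation day 13.5, in 6 groups of 2. Wild-type cells, cells labelled Tnfrsf1α-/- and cells labelled Tnfrsf1β-/- were each left untreated or given TNFα (tumour necrosis factor alpha, an inflammatory cytokine) for 1 hour. The 2 deletion labels point to the genes of TNFR1 and TNFR2, the cell's receptors for TNFα. The labels give no dose, no number of animals, no cell clone and no means of deletion, and do not say whether a group's 2 libraries are from separate cultures. The p-values below therefore cover library-to-library spread alone, possibly of technical origin. Levels are log2(FPKM + 1), where FPKM is a count of sequenced fragments divided by transcript length and by the library's mapped total, and differences are on that log2 scale. How many reads each library had is unknown.

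The proteins come from families of the plasma membrane. CEACAM6 belongs to the carcinoembryonic antigen family, immunoglobulin-like adhesion proteins whose human members are used as tumour antigens, and in human it is held in the membrane by a glycosylphosphatidylinositol (GPI) lipid anchor. In human, ALPP is the placental alkaline phosphatase, a GPI-anchored ectoenzyme normally made by the placenta and seen again in some tumours. AMIGO2 is a single-pass adhesion protein with leucine-rich repeats and an immunoglobulin domain that binds other AMIGO proteins, and NrCAM is an adhesion receptor of the L1 family that ties neighbouring cells to ankyrin and the cytoskeleton inside. TNFα binds both receptors on the cell surface and is known for the rapid induction of NF-kB target genes. In the RefSeq annotation of rat assembly GRCr8, Alpp (gene ID 100359675, chromosome 9), Amigo2 (300186, chromosome 7) and Nrcam (497815, chromosome 6) are protein-coding. The gene that carries the symbol Ceacam6 there (100125369, chromosome 1) is annotated as a long non-coding RNA with 1 transcript and no protein, so a surface protein made from that rat gene is not given by this annotation. The build behind the table is not given in the sources used here, so whether its Ceacam6 line is this same gene is not known.

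The sequences just upstream of the start sites are shown because Alpp and Amigo2 were high in the same libraries while their start regions differed widely in base composition. RefSeq's GRCr8 promoter table held 3 of the 4 genes and no entry for Nrcam. The 250 bases before the start are printed 5′ to 3′ on the gene's strand, with every CG dinucleotide in capitals. They lie at chr1:89544165-89544414 on the plus strand for Ceacam6, chr9:95216510-95216759 on the minus strand for Alpp and chr7:130273736-130273985 on the minus strand for Amigo2.
Ceacam6: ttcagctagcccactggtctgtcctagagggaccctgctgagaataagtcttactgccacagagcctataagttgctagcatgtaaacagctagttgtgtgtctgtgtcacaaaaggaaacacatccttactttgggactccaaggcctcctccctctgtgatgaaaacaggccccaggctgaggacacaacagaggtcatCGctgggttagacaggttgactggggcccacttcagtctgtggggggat
Alpp: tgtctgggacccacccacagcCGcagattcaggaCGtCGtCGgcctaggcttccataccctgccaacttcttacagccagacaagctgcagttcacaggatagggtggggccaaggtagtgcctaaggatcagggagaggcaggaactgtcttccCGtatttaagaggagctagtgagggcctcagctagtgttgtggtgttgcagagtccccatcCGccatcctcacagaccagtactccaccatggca
Amigo2: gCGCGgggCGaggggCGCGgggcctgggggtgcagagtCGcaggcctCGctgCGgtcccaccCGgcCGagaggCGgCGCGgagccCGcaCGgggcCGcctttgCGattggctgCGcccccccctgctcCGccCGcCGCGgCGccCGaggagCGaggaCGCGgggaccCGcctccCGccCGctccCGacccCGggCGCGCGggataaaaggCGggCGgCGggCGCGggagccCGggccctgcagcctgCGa
The Amigo2 window was a dense CG region, with 42 CG dinucleotides and a GC content of 82.8%. Of the 33469 windows of this length in the table, 99.5% had a lower GC content and 99.2% had fewer CG dinucleotides. The Alpp window held 6 CG dinucleotides at 56.8% GC and the Ceacam6 window 1 at 52% GC, beside medians of 5 and 51.2% over all windows. Short motifs were searched on both strands, and none of them contains another. The NF-kB (kB) site was found in none of the 3 windows and in 6.33% of all windows, the AP-1 motif TGANTCA in none and in 6.34%, the TEAD motif GGAATG in none and in 12.1%, and TATAAA in none and in 12.9%. CCAAT occurred once in Amigo2, on the opposite strand, and in 34% of all windows. These are letter matches in 1 short window each, and nothing about a factor follows from a match or its absence.

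The libraries did not all follow their labels. Tnfrsf1a, which encodes TNFR1, was not lower under the label Tnfrsf1α-/-, at 5.94 and 6.13 untreated and 5.65 and 5.95 with TNFα, beside 5.45 and 5.15 in untreated wild type. Those groups are therefore called the libraries labelled Tnfrsf1α-/-, and directions within them depend on that naming being right. Tnfrsf1b, for TNFR2, had a listed 0 in the untreated wild-type pair just as in the 4 libraries labelled Tnfrsf1β-/-, so it does not separate these labels in untreated cells. With TNFα it was at 2.58 and 2.43 in wild type and listed at 0 in both Tnfrsf1β-/- libraries. In treated Tnfrsf1α-/- it was listed at 0 in replicate 1 and was at 4.09 in replicate 2. Spearman's rho between replicates across the 11860 tested lines was 0.961 to 0.996 in 5 groups and 0.782 in treated Tnfrsf1α-/-, and untreated wild type replicate 1 and treated Tnfrsf1β-/- replicate 1, which share neither label, were at 0.983. Summed FPKM was 447554 to 472935 in the 4 untreated knockout-labelled libraries and 1071530 to 2085916 in the other 8. Under both knockout labels this gap lies between untreated and treated libraries, so it cannot be told apart from TNFα there. A listed 0 may be a failed estimate or a silent gene, and which of these holds was not tested. Of 98 lines with a ribosomal protein symbol, 3 to 9 were listed at 0 in each library. They were picked by symbol, so some may be paralogues that not every cell uses. The 7 common housekeeping genes were never under 1.92. For members at 0 the library values are therefore given in place of a mean.

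Ceacam6 was seen in treated wild type alone. Its level was 14.81 and 14.64 in the 2 treated wild-type libraries, and it was listed at 0 in the other 10 libraries, treated Tnfrsf1α-/- and treated Tnfrsf1β-/- included. The groups did not overlap, and the 2 high libraries differed by 0.16. In FPKM these levels were 28641 and 25567, the 7th and 8th highest of all 22384 lines, or 1.46% and 1.23% of the summed FPKM of those libraries. With both sides of every comparison outside wild type at 0, Ceacam6 could not be tested in any of them.

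Alpp was seen in treated wild type and treated Tnfrsf1α-/-, at nearly the same level. Its values were 12.52 and 12.37 in treated wild type and 12.32 and 12.47 in treated Tnfrsf1α-/-, and it was listed at 0 in the other 8 libraries. The ranges of the 2 high groups overlapped, with means 0.05 apart on the log2 scale, and treated Tnfrsf1β-/- lay with the untreated groups. In FPKM the 4 values were 5873, 5295, 5120 and 5658, which ranked 49th, 54th, 34th and 35th in their libraries. In the libraries labelled Tnfrsf1α-/-, Alpp was higher with TNFα by 12.39 (SE 0.17, limma adjusted p = 2.86e-09), in 2 of 2 libraries. No tested line had a smaller p in that comparison.

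Amigo2 was highest in treated wild type, second in treated Tnfrsf1α-/- and low elsewhere. Its level was 13.14 and 12.73 in treated wild type, 9.69 and 9.63 in treated Tnfrsf1α-/-, 0.95 and 1.05 in untreated Tnfrsf1α-/-, 1.15 and 1.19 in untreated Tnfrsf1β-/-, 0.17 and 0.43 in untreated wild type and 0.43 and 0.18 in treated Tnfrsf1β-/-. The 2 high groups stood clear of each other and of the rest, and the last 2 groups overlapped. Unlike Ceacam6 and Alpp, Amigo2 had a small signal in every library. In FPKM it was 9047 and 6795 in treated wild type and 825 and 790 in treated Tnfrsf1α-/-, beside 0.123 and 0.351 in untreated wild type. In the libraries labelled Tnfrsf1α-/-, Amigo2 was higher with TNFα by 8.66 (SE 0.21, limma adjusted p = 1.25e-08), in 2 of 2 libraries.

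Nrcam followed the same order, with 1 untreated library out of place. Its level was 13.26 and 12.69 in treated wild type and 9.20 and 8.71 in treated Tnfrsf1α-/-. It was at 0.01 in both untreated Tnfrsf1α-/- libraries and listed at 0 in all 4 libraries labelled Tnfrsf1β-/-. Untreated wild type gave 0 in replicate 1 and 2.77, or 5.80 FPKM, in replicate 2. This gap between replicates was among the widest of that group, since 0.152% of tested lines had a wider one. Leaving out a wild-type library moved the described wild-type rise of 11.59 to between 10.21 and 12.98. In the libraries labelled Tnfrsf1α-/-, Nrcam was higher with TNFα by 8.94 (SE 0.71, limma adjusted p = 2.56e-05), in 2 of 2 libraries.

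**Figure D1:**
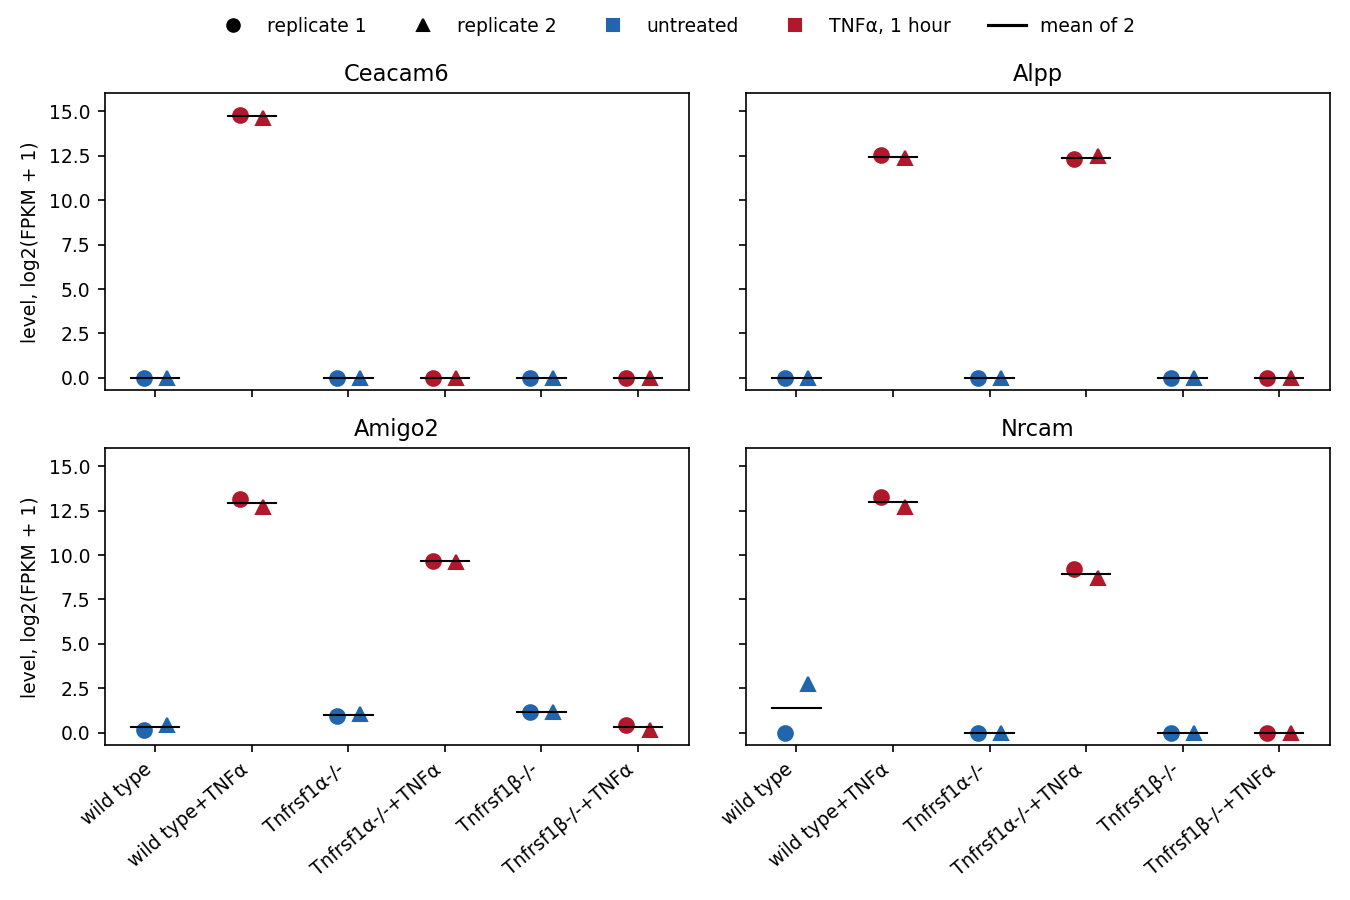
Level of each gene, log2(FPKM + 1), in the 12 libraries by group; circles are replicate 1, triangles replicate 2, blue untreated, red TNFα for 1 hour, and the bar is the mean of 2. Ceacam6 is high in treated wild type alone, Alpp is level between treated wild type and treated Tnfrsf1α-/-, and Amigo2 and Nrcam step down between them.

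The members thus took up very different shares of the 2 responding groups. Together they made 2.72% and 2.12% of summed FPKM in the treated wild-type libraries and 0.498% and 0.470% in treated Tnfrsf1α-/-. Alpp had 1.04 times the FPKM in treated wild type that it had in treated Tnfrsf1α-/-, Amigo2 had 9.81 times and Nrcam 16.4 times, and Ceacam6 was listed at 0 in the second. These ratios use the wild-type libraries that chose the genes and carry no test. Within libraries the ratio of Ceacam6 to Alpp FPKM was 4.88 and 4.83 in the 2 treated wild-type libraries. The ratio of Alpp to Amigo2 was 0.649 and 0.779 there, and 6.20 and 7.16 in treated Tnfrsf1α-/-, so the order of these genes turned over between the groups. Amigo2 and Nrcam stayed close to each other, with ratios of 0.922 and 1.03 in treated wild type and 1.40 and 1.90 in treated Tnfrsf1α-/-.

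The treated Tnfrsf1α-/- replicates, which differed by over 2 log2 units in 1231 of 11860 tested lines, were close for these genes. Their gap was 0.06 for Amigo2, 0.14 for Alpp and 0.50 for Nrcam, beside a median gap of 0.68 over all tested lines. Of all tested lines 93.4%, 87.3% and 61.7% had a wider gap than these 3 genes. Either replicate alone gave the same calls: on leaving out each library in turn the rise stayed between 12.32 and 12.47 for Alpp, 8.61 and 8.71 for Amigo2 and 8.70 and 9.19 for Nrcam, with limma adjusted p of at most 0.000535.

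Under the label Tnfrsf1α-/-, the 3 testable members were all called higher with TNFα, where 9.81% of the 11860 tested lines were called higher, 7.50% lower and 17.3% in either direction. The median difference of all tested lines was -0.02. In this fit any gene counted as called had a limma adjusted p under 0.05, from a model of 6 group means over all 12 libraries. Nrcam's rise had the widest error of the 3, with an SE of 0.71, which was 0.209 when the 4 wild-type libraries were left out of the fit.

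Under the label Tnfrsf1β-/- none of the members was higher with TNFα. Ceacam6, Alpp and Nrcam were listed at 0 on both sides and could not be tested. Amigo2 fell by 0.86 (SE 0.21, limma adjusted p = 0.00729), in 2 of 2 libraries, in a comparison where 42.9% of tested lines were called lower, 17.6% higher and 60.5% in either direction, and the median of all lines was itself -0.66. The Amigo2 difference was thus close to that of the median line, and its call was lost with a pseudocount of 5 (-0.25, limma adjusted p = 0.222) and with quantile normalization (-0.33, adjusted p = 0.338). With a pseudocount of 0.1 the difference was -2.05 and stayed called.

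Between the 2 knockout labels Alpp, Amigo2 and Nrcam differed with TNFα, while Ceacam6 was listed at 0 in all 8 of these libraries. In untreated cells Amigo2 alone had values to test, and the difference of Tnfrsf1α-/- minus Tnfrsf1β-/- was -0.17 (SE 0.21, limma adjusted p = 1), where 0.0337% of tested lines were called, 4 in number, and 450 had an unadjusted p under 0.05. In treated cells Alpp was higher under Tnfrsf1α-/- by 12.39 (SE 0.17, limma adjusted p = 3.54e-09), Amigo2 by 9.35 (SE 0.21, adjusted p = 2.1e-08) and Nrcam by 8.95 (SE 0.71, adjusted p = 3.74e-05), where 34.4% of tested lines were called higher, 10.9% lower and 45.4% in either direction. The response to TNFα itself also differed between the labels. Tnfrsf1α-/- minus Tnfrsf1β-/- was 12.39 for Alpp (SE 0.24, limma adjusted p = 6.73e-08), 9.52 for Amigo2 (SE 0.30, adjusted p = 3.42e-07) and 8.94 for Nrcam (SE 1.01, adjusted p = 0.000558), where 14.5% of lines were called higher, 5.67% lower and 20.1% in either direction. These comparisons share the treated Tnfrsf1α-/- libraries, and Alpp's difference is the same number in all 3 because every other group in them was listed at 0.

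**Figure D2:**
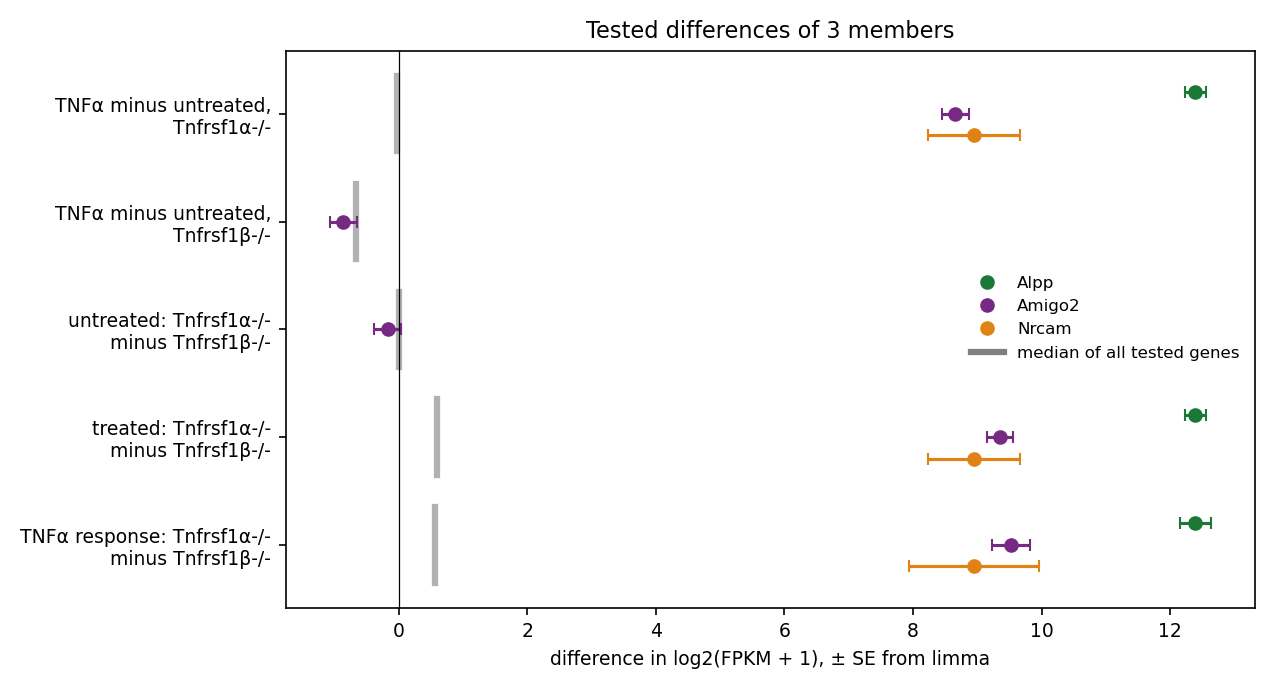
Tested differences of Alpp, Amigo2 and Nrcam in log2(FPKM + 1), with SE from limma as bars, for the 5 comparisons without wild-type libraries; grey marks are the median of all 11860 tested lines. The 3 genes lie between 8.66 and 12.39 wherever treated Tnfrsf1α-/- libraries enter, and Amigo2 lies near the grey mark in the other 2 comparisons.

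Across the 12 libraries, Alpp, Amigo2 and Nrcam ran together and Ceacam6 less so. As a description, Pearson's r on the log2 scale was 0.981 for Alpp with Amigo2, 0.964 for Alpp with Nrcam and 0.984 for Amigo2 with Nrcam. Ceacam6 was at 0.634 with Alpp, 0.764 with Amigo2 and 0.783 with Nrcam. The libraries form a few high and many low points, so these values mostly record which groups were high.

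The lines most like each gene by that same r, over the same 12 libraries, came from many functions. Those closest to Ceacam6 included Cyp2c23, Qsox1, Serpina6 and Sox2, all at an r that rounds to 1 and all listed at 0 outside treated wild type. Sox2, a pluripotency factor, was at 9.90 and 9.80 there, and Serpina6, the corticosteroid-binding globulin made by hepatocytes, at 6.43 and 6.36. Those closest to Alpp were Cdcp1, Apol2, Panx2, Lonrf3 and L1cam. Cdcp1, itself a transmembrane protein of epithelial and tumour cells, was at 10.57 and 10.35 in treated wild type and 10.62 and 10.34 in treated Tnfrsf1α-/-. Amigo2 and Nrcam shared their 2 closest lines, Ccnb1, the mitotic cyclin B1, and Anxa9, an annexin. Ccnb1 was at 5.58 to 6.40 in the 8 low libraries, 12.49 and 12.65 in treated wild type and 10.86 and 10.84 in treated Tnfrsf1α-/-. The next 3 were Apex2, Dffa and Cdc25c for Amigo2, and Anp32a, Ccdc97 and Fscn1 for Nrcam. An r over 0.95 was reached by 488 of 11859 other lines for Ceacam6, 212 for Alpp, 202 for Amigo2 and 144 for Nrcam.

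Many other lines had the same on and off pattern. At least 10 FPKM in both treated wild-type libraries and a listed 0 in the other 10 was met by 57 of 22384 lines, and Ceacam6 had the widest gap of all lines between those 2 libraries and the rest. At least 10 FPKM in the 4 treated wild-type and Tnfrsf1α-/- libraries with a listed 0 in the other 8 was met by 13 lines, Alpp among them. In 277 lines these 4 libraries all stood over 2 log2 units above the other 8, and Alpp was 1st of all lines by that gap at 12.32, Amigo2 10th at 8.44 and Nrcam 47th at 5.94.

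Lines with that pattern were spread unevenly over the alphabet, which was noticed after the values were seen. The deposited table is in alphabetical order of symbol, and 2 of the 4 genes begin with A. Of the 885 tested lines with the initial A, 65 (7.34%) had the 4 libraries over 2 log2 units above the other 8, against 212 of 10975 (1.93%) with another initial. With a gap over 5 log2 units it was 37 (4.18%) against 59 (0.538%). The other 24 initials with at least 20 lines ran from 0% to 6.86%, the highest being O. Treated and untreated libraries also ranked the A lines less alike: Spearman's rho of untreated with treated wild type replicate 1 was 0.492 over A lines and 0.659 over the others, and of untreated with treated Tnfrsf1α-/- replicate 1 it was 0.663 and 0.867. Between the 2 untreated wild-type libraries it was 0.962 and 0.960. A gene's initial is no biological property, and its part in the Alpp and Amigo2 values was not tested. Symbols are taken as deposited, and nothing in the table shows whether each value stands on the line of its own gene, so the values of Alpp and Amigo2 are theirs only if it does.

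**Figure D3:**
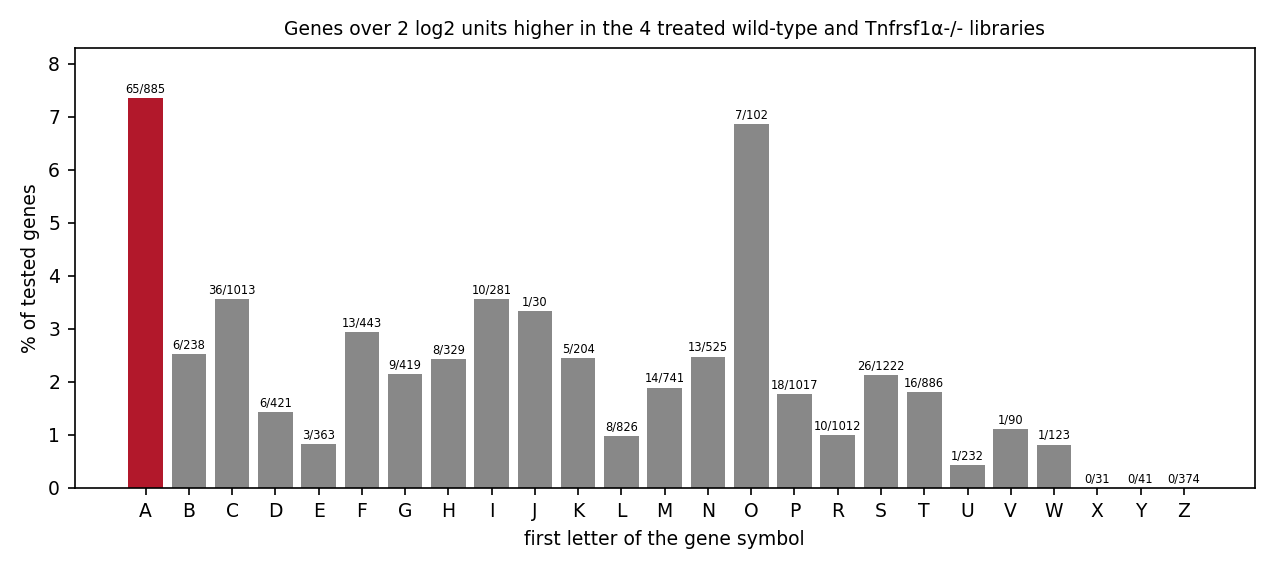
Share of tested lines, in percent, whose 4 treated wild-type and Tnfrsf1α-/- libraries were all over 2 log2 units above the other 8, by first letter of the symbol, with counts over the bars. The letter A (red) has 65 of 885 and O has 7 of 102, while all other letters lie under 4%.

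Relatives of the members were followed by family, from lists of related genes. Of 19 other CEACAM-family genes 11 were in the table and 2 were tested. Both rose with TNFα under the label Tnfrsf1α-/-, where 9.81% of all tested lines were called higher. Ceacam1, the widespread family member of epithelia and hepatocytes, was at 8.23 and 8.19 in treated wild type, 7.31 and 6.89 in treated Tnfrsf1α-/- and 1.66 to 2.65 in the other 8 libraries. It rose by 5.13 under Tnfrsf1α-/- (SE 0.33, limma adjusted p = 5.64e-06) and moved by -0.27 under Tnfrsf1β-/- (adjusted p = 0.514). Ceacam19 differed from it in being high in untreated wild type too, at 7.19 and 7.39, and it was at most 0.11 in the untreated knockout-labelled libraries and in treated Tnfrsf1β-/-. Under Tnfrsf1α-/- it rose by 7.53 (SE 0.32, limma adjusted p = 3.13e-07) to 8.02 and 7.19. Ceacam16, too low to be tested, reached 3.12 and 2.18 in treated wild type and at most 0.07 elsewhere.

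Other alkaline phosphatases did not share the Alpp pattern. Alpl, the tissue-nonspecific enzyme of liver and bone, was at 6.13 and 5.98 in treated wild type and at most 0.10 elsewhere, treated Tnfrsf1α-/- included, where Alpp was high. Under Tnfrsf1α-/- it moved with TNFα by -0.05, which was not called. Alpi, the intestinal enzyme, was listed at 0 in all 12 libraries, and Alppl2 was at most 0.15. Of the 4 listed phosphatases 3 were in the table and Alpl alone was tested.

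Of 20 relatives of Amigo2 with leucine-rich repeats 19 were in the table and 5 were tested. Under the label Tnfrsf1α-/- 1 of the 5 rose and none fell, beside 9.81% and 7.50% of all tested lines. That one was Flrt2, an adhesion protein that also guides axons, which rose by 4.86 (SE 0.90, limma adjusted p = 0.00754) from 6.33 and 6.42 to 11.52 and 10.95. Under Tnfrsf1β-/- all 5 fell, 4 of 5 with median-ratio scaling and 3 of 5 with quantile normalization. Over all tested lines 42.9% were called lower and 17.6% higher in that comparison, with a median of -0.66. Flrt2 fell by 4.87 there (limma adjusted p = 0.00207). Amigo1, the closest paralogue, was at most 0.75 in any library.

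In the L1 family L1cam followed the members and the other paralogues did not. L1cam, the founding member, was at 7.37 in both treated wild-type libraries, 7.45 and 7.10 in treated Tnfrsf1α-/- and at most 0.11 elsewhere, close to Alpp in pattern. It rose under Tnfrsf1α-/- by 7.26 (SE 0.19, limma adjusted p = 1.88e-08). Chl1 was listed at 0 throughout and Nfasc was at most 0.01. Ank1, an ankyrin of the adaptor family that L1-type receptors bind, was at 8.69 and 8.59 in treated wild type, 8.14 and 8.05 in treated Tnfrsf1α-/- and, unlike any member, 5.65 and 5.83 in treated Tnfrsf1β-/-. Ank1 rose by 8.10 under Tnfrsf1α-/- (limma adjusted p = 7.64e-09) and by 5.71 under Tnfrsf1β-/- (adjusted p = 1e-07). Of the 8 tested genes of this list 2 rose and 1 fell under Tnfrsf1α-/-, beside 9.81% and 7.50% of all tested lines. Under Tnfrsf1β-/- 1 of them rose and 5 fell, beside 17.6% and 42.9% of all tested lines. Quantile normalization gave 4 lower calls under Tnfrsf1α-/-. L1cam and Ank1 passed the filter on low values through the groups where they were high.

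**Figure D4:**
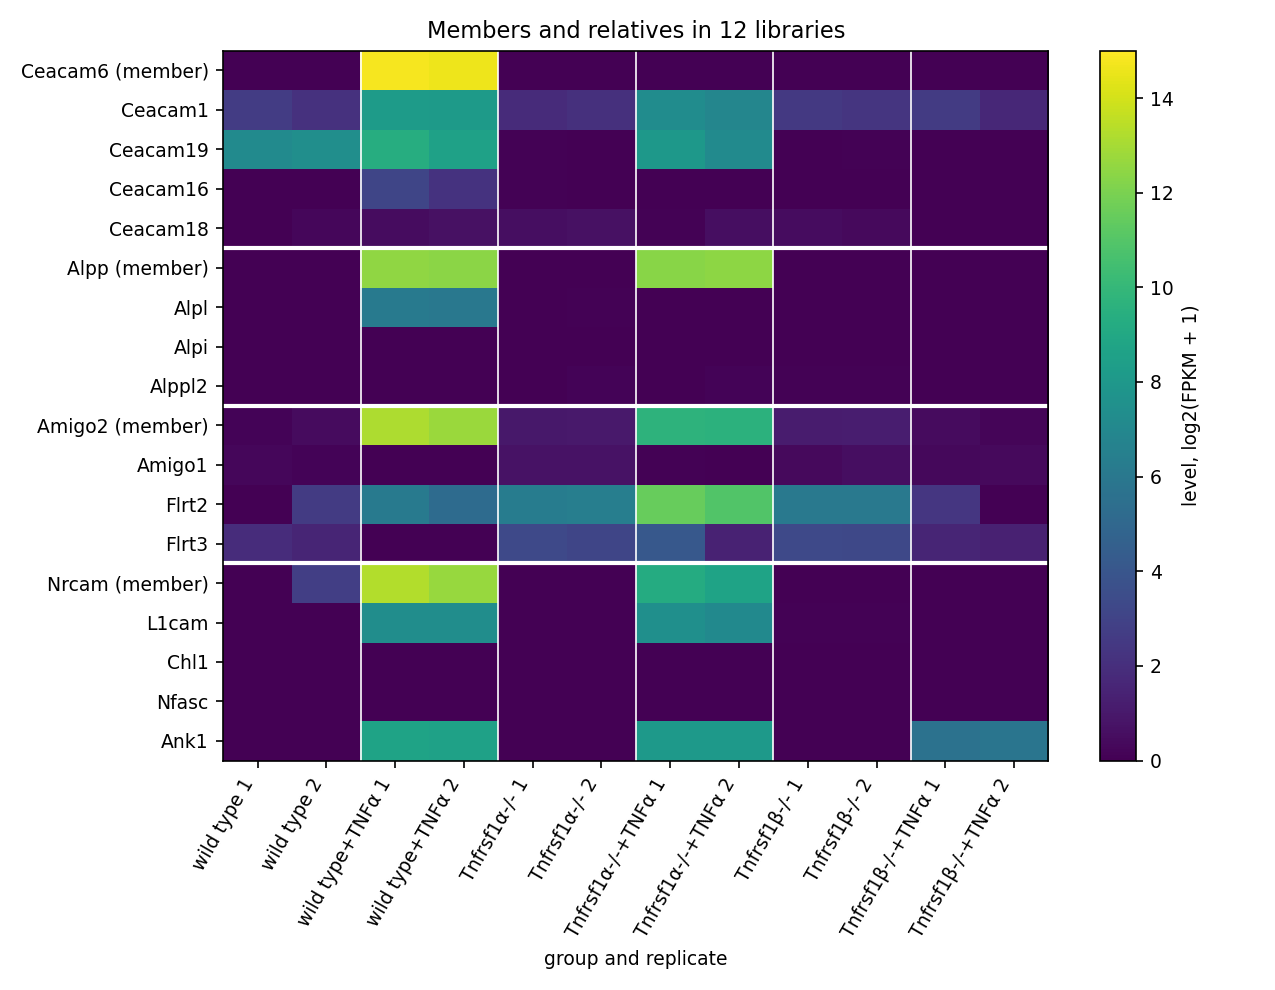
Levels, log2(FPKM + 1), of the 4 members and their paralogues and partners in the 12 libraries, as a colour scale from 0 to 15. Ceacam1, L1cam and Ank1 are bright in treated wild type and treated Tnfrsf1α-/- as Alpp, Amigo2 and Nrcam are, but Ank1 also has signal in treated Tnfrsf1β-/-. Alpl stands out in treated wild type, and Ceacam16 is faint there.

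Surface proteins at large did not move one way. Under Tnfrsf1α-/- the median difference over tested genes was 6.33 for the CEACAM list, -0.40 for the leucine-rich repeat list, -0.34 for the L1 list, 0.12 for GPI anchor synthesis, -0.37 for epithelial antigens and -0.14 for immunoglobulin-like adhesion molecules, beside -0.02 over all tested lines. Under Tnfrsf1β-/- it was -0.16, -1.85 and -1.43 for the first, the second and the last of these, beside -0.66. Of 26 tested GPI-anchored proteins 3 rose and 1 fell with TNFα under Tnfrsf1α-/-, with a median of -0.10. These counts were near the shares of all tested lines, 9.81% higher and 7.50% lower. Nt5e, the ectonucleotidase CD73, rose by 11.17 (SE 0.17, limma adjusted p = 2.86e-09) from 0.70 and 0.56 to 11.79 and 11.81, but it was also high in untreated wild type, at 9.20 and 9.16. Rtn4r, the Nogo receptor, rose by 2.80 (adjusted p = 0.00168) and Cd55, a complement inhibitor, fell by 3.26 (limma adjusted p = 0.0109). Under Tnfrsf1β-/- 1 of the 26 GPI-anchored proteins rose and 4 fell, beside 17.6% and 42.9% of all tested lines. In wild type, where 31.9% of all tested lines were called higher, 15.3% lower and 47.2% in either direction, 5 were higher and 8 lower. Cd24 and Lypd3 of this list passed the filter on low values through treated wild type. Under Tnfrsf1β-/- median-ratio scaling gave 2 higher and 0 lower, so the direction of this list there depends on scaling. The enzymes that build and attach the GPI anchor, 26 tested, gave 4 higher and 0 lower under Tnfrsf1α-/-, led by Pgap1, a lipid remodelling enzyme, with 6.61 (SE 0.39, limma adjusted p = 2.89e-06). They gave 8 higher and 7 lower under Tnfrsf1β-/-, and 9 higher and 1 lower in wild type, where median-ratio scaling gave 5 and 5. The shares of all tested lines in these comparisons are those given for the GPI-anchored proteins.

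Among 11 tested epithelial surface antigens 2 rose and 2 fell under Tnfrsf1α-/-, where 9.81% of all lines rose and 7.50% fell. Itga6, the laminin receptor subunit, rose by 7.20 (SE 0.28, limma adjusted p = 1.7e-07) and Cdh1, E-cadherin, by 6.40 (SE 0.51, adjusted p = 2.46e-05). Both were also higher with TNFα under Tnfrsf1β-/-, by 5.42 and 3.08 (limma adjusted p = 2.86e-06 and 0.00127), where 2 of the 11 rose and 3 fell, beside 17.6% and 42.9% of all lines. Itga6 was already at 9.73 and 10.10 in untreated wild type. In wild type 7 were higher and 1 lower, beside 31.9% and 15.3% of all lines, but Epcam and Cdh17 among the 7 passed the filter on low values through treated wild type. Of 19 tested immunoglobulin-like adhesion molecules 3 rose and 3 fell under Tnfrsf1α-/-, with 7 lower under quantile normalization. The 3 that rose were Mcam by 7.54, Alcam by 7.47 and Bsg, basigin, by 4.51 (limma adjusted p = 4.5e-08, 1.31e-07 and 0.000332), beside the same shares of all lines. Alcam was already at 9.38 and 9.43 in untreated wild type. Mcam was the reverse of the members in order, with its lower treated wild-type library at 6.54 and the treated Tnfrsf1α-/- libraries at 10.34 and 10.25. Under Tnfrsf1β-/- 1 rose and 8 fell, or 2 and 3 with median-ratio scaling, and in wild type 5 were higher and 6 lower, beside the shares of all lines given for the epithelial list. Esam, an immunoglobulin-like gene of this list, passed the filter on low values through treated wild type.

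Genes known for an early rise after TNFα moved in both directions in wild type and under Tnfrsf1α-/-. Under Tnfrsf1β-/- nearly all of their calls were lower. Of 20 tested, 2 rose and 4 fell under Tnfrsf1α-/-, none rose and 16 fell under Tnfrsf1β-/-, and 4 were higher and 6 lower in wild type. Over all tested lines the shares called higher and lower were 9.81% and 7.50%, 17.6% and 42.9%, and 31.9% and 15.3% in these comparisons, so the share that rose under Tnfrsf1α-/- was close to that of all lines. Their medians were -0.39, -1.73 and -0.19, beside -0.02, -0.66 and 0.32 over all tested lines. Junb, an AP-1 subunit, was higher by 5.12 in wild type and 3.25 under Tnfrsf1α-/- (limma adjusted p = 2.01e-07 and 1.06e-05). Cxcl1, a neutrophil chemokine and NF-kB target, fell by 7.20 in wild type and by 1.67 under Tnfrsf1α-/- (limma adjusted p = 1.33e-08 and 0.00069). With median-ratio scaling 1 of the 20 rose and 10 fell under Tnfrsf1β-/-.

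The labelled cell type was set against its markers, because in bulk RNA fewer cells of a type and less RNA per cell cannot be told apart. The 12 progenitor and bile duct markers did not behave as 1 group. In treated wild type Epcam was at 3.32 and 3.05, and it was listed at 0 in the other 10 libraries. Krt19 was at 4.78 and 4.84 in treated wild type against at most 0.46 elsewhere, and Krt18 at 9.64 and 9.84 against at most 0.34. Afp and Cd24 were likewise at most 0.18 outside treated wild type. Sox9, a bile duct and progenitor factor, was at 9.15 and 9.19 in treated wild type, 9.67 and 9.39 in treated Tnfrsf1α-/-, 5.21 to 6.30 in untreated wild type and treated Tnfrsf1β-/- and at most 0.31 in the rest. Krt8 was at 6.26 to 10.05 in 11 libraries and at 0.62 in treated Tnfrsf1α-/- replicate 2. Krt7 was at 13.50 to 15.67 in all treated and wild-type libraries and 7.64 to 7.99 in the untreated knockout-labelled ones. The summed FPKM of the list was 41356 to 54902 in treated wild type, 26269 to 35986 in treated Tnfrsf1α-/-, 12010 to 14655 in untreated wild type and treated Tnfrsf1β-/- and 373 to 500 in the rest.

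Hepatocyte markers moved with Ceacam6. Their sum over 12 genes was 4793 to 4981 FPKM in treated wild type and 8.96 to 26.6 in the other 5 groups, with Alb at 10.01 and 9.92 against at most 0.27. Most of these genes passed the filter on low values only through treated wild type, so no count of calls is given for them. The 9 intestinal epithelial markers in the table summed to 180 to 194 FPKM in treated wild type and 0.231 to 4.31 elsewhere, with Alpi at 0. The mesenchymal markers were mixed. Vim was at 1.22 and 1.34 in treated wild type and 8.93 to 10.92 elsewhere. Tagln was instead at 10.73 and 11.37 in treated wild type and 7.70 to 8.95 elsewhere. Dcn was also highest in treated wild type, at 8.16 and 7.72. Of 8 tested mesenchymal genes 6 were lower and 2 higher in wild type, or 6 and 1 with median-ratio scaling, beside 15.3% and 31.9% of all tested lines. The mesenchymal sum was 2236 to 3093 against 2551 to 6763. Placental markers, looked at because of the human ALPP enzyme, summed to 39181 to 52464 FPKM in treated wild type and 25493 to 35308 in treated Tnfrsf1α-/-. They also summed to 11580 to 14260 in untreated wild type and 12429 to 14391 in treated Tnfrsf1β-/-, where Alpp was listed at 0. Krt7, which the progenitor list holds too, made up nearly all of the treated wild-type sum. On the log2 scale Krt7 was at 15.24 and 15.67 there, and the sum at 15.26 and 15.68. Of the 13 lines of this list 6 were listed at 0 in both treated wild-type libraries. Neuronal and glial, macrophage and endothelial markers summed to at most 24.9, 49.8 and 4.26 FPKM in any library. In treated Tnfrsf1α-/-, where Alpp, Amigo2 and Nrcam were high, Alb was at 0.27 and 0.20 and Epcam at 0, while Sox9 and Krt7 were high. The part of these markers in the members' values was not tested.

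**Figure D5:**
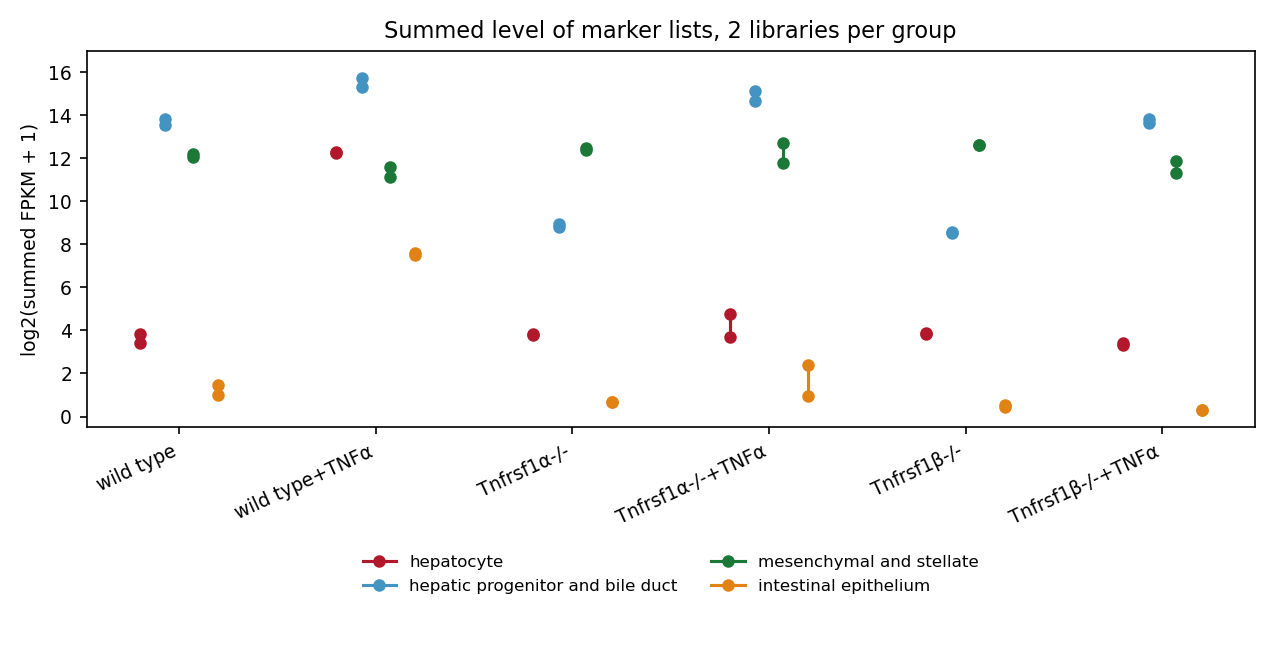
Summed FPKM of 4 marker lists, as log2(sum + 1), with 1 point per library and a line joining the 2 libraries of a group. Hepatocyte and intestinal sums stand apart in treated wild type, while the progenitor sum is also high in treated Tnfrsf1α-/-.

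Genes next to Alpp, Amigo2 and Nrcam did not share their pattern, and 1 gene near Ceacam6 did. Among the 5 genes on each side in RefSeq's GRCr8 order, 7 for Ceacam6, 5 for Alpp, 1 for Amigo2 and 2 for Nrcam were in the table, and in none did the 4 treated wild-type and Tnfrsf1α-/- libraries stand over 2 log2 units above the rest. Ceacam6 itself was high in treated wild type alone, and by a gap of over 2 log2 units between those 2 libraries and the other 10, 1 of its 7 neighbours, Cd79a, shared that pattern. Alpi and Akp3, phosphatase genes beside Alpp, were listed at 0 in all libraries. Ceacam4 beside Ceacam6 was at most 0.60, while Cd79a, a B-cell receptor subunit on the same side as Rps19, was at 5.06 and 5.05 in treated wild type and at most 0.24 elsewhere, far below Ceacam6. Pced1b beside Amigo2 was at 0 in treated wild type and at most 1.52, and Pnpla8 beside Nrcam was between 1.07 and 3.68.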

How the data were processed

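RNA was extracted with Trizol and made into Illumina TruSeq libraries, per the labels' protocols. The authors deposited 1 table for 12 libraries. Aligner, quantification tool, build and annotation were not given in the sources used here. Its 22384 lines with a symbol (346 more had none) hold deposited values taken as log2(FPKM + 1), made by the authors from their FPKM. That scale was inferred, since no value exceeds 16.8 and library sums of 38815 to 47619 are too little for FPKM. With another base every fold would change. Depth is unknown, so no counting interval is given, and FPKM is relative, so a few strong genes lower all others. All 12 columns matched a sample description and 0 were unused.

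Lines with a mean FPKM of at least 1, and the 4 members, were fitted with limma 3.58.1 (R 4.3.3): 6 group means, moderated spread with an intensity trend, pseudocount 1, no block, Benjamini-Hochberg over 11860 lines, two-sided, threshold 0.05. Adjusted p-values are limma's. Members with all compared libraries under 0.1 FPKM were not tested. The fit was tested on simulated data. Alternatives were other pseudocounts, filters, scalings, fewer groups, a replicate block and leaving out libraries. The members, gene lists, cell type markers and tests were chosen with earlier results of these data known. Named are the 4 members, their paralogues, up to 4 genes per list with the smallest p, the targeted genes, the 5 lines most correlated with each member (1 is not reported here), defining markers and neighbours; Krt7, Junb and Cdcp1 are among these, and the neighbours, the pattern by initial and the values of Sox9, Krt8, Afp and Cd24 were added after values were seen. RefSeq GRCr8 gave names (10450 of 11860 tested lines, 88.1%), gene types, gene order and promoter windows; no protein table was used here.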

Additional observations from a re-analysis of the deposited data

Results flagged for a closer look

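The response to TNFα of 3 genes differed between the libraries labelled Tnfrsf1α-/- and Tnfrsf1β-/- by the test of the difference itself. It was larger under Tnfrsf1α-/- by 12.39 log2 units for Alpp, by 9.52 for Amigo2 and by 8.94 for Nrcam, with limma adjusted p of 6.73e-08, 3.42e-07 and 0.000558. Both treated Tnfrsf1α-/- libraries were high for each gene. In the treated Tnfrsf1β-/- libraries Alpp and Nrcam were listed at 0, which may be a failed estimate, and Amigo2 was at 0.43 and 0.18. Of all tested lines 20.1% passed this same test.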

How the results depend on the processing

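The 9 called differences of Alpp, Amigo2 and Nrcam that involve treated Tnfrsf1α-/- kept their direction and limma call in every alternative run for them. They ranged over all alternatives from 10.07 to 15.72 for Alpp, 7.08 to 11.58 for Amigo2 and 6.64 to 12.27 for Nrcam, the widest moves coming with other pseudocounts. The Amigo2 difference under Tnfrsf1β-/-, -0.86, lost its call with a pseudocount of 5 (-0.25) and quantile normalization (-0.33), was -2.05 with a pseudocount of 0.1, and ranged from -0.98 to -0.74 on leaving out a library.

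Counts of called lines moved more. Untreated Tnfrsf1α-/- against Tnfrsf1β-/- gave 4, but 71 with no filter, 1 with a mean FPKM of at least 5, 17 with quantile normalization, 1894 with only the groups compared and 58 without both treated Tnfrsf1α-/- libraries. TNFα under Tnfrsf1α-/- gave 2052, but 3789 with quantile normalization, 570 with only the groups compared and 1217 without the 4 wild-type libraries, an alternative chosen after seeing the data. Treated Tnfrsf1α-/- against Tnfrsf1β-/- gave 5382, but 382 with only the groups compared. On leaving out each library the counts ran from 750 to 7001 for TNFα under Tnfrsf1α-/-, 4979 to 8759 under Tnfrsf1β-/-, 3 to 59 for the untreated labels, 2187 to 7656 for the treated ones, 656 to 6140 for the difference in response and 3520 to 7646 in wild type; a group left with 1 library was assumed to vary like the others. The causes were not tested.

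Scaling also set the direction of calls. The share of called lines that were higher was 56.7% under Tnfrsf1α-/- (47.5% with median-ratio scaling, 34.8% with quantile normalization), 29.1% under Tnfrsf1β-/- (49.9%, 44.8%), 75.9% for the treated labels (41.5%, 42.1%), 71.9% for the difference in response (40.2%, 41.8%), 67.6% in wild type (49.2%, 45.6%) and 100% for the untreated labels (100%, 41.2%).

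Replicate numbers were checked for pairing: of 15 pairs of groups 9 had a correlation of replicate deviations over 0.1, from -0.17 to 0.24. All 6 pairs among untreated wild type and the 3 treated groups were over 0.1 (0.149 to 0.236), and the untreated Tnfrsf1β-/- group was under it with every other group. Since not every pair was over 0.1 and the labels name no shared batch, the numbers were not taken as pairing. With the replicate block no call of a member changed, and Amigo2 under Tnfrsf1β-/- was at -0.86 (limma adjusted p = 0.00908). On leaving out a library, Alpp's differences stayed at 12.32 to 12.47, Amigo2's at 8.61 to 8.71 under Tnfrsf1α-/-, 9.23 to 9.48 between treated labels, 9.40 to 9.64 for the response and -0.22 to -0.12 between untreated labels, and Nrcam's at 8.70 to 9.20. The number of libraries limits the precision, and with depth unknown a listed 0 has no upper bound.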
